A study of Mus musculus with 16 samples.

Results

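The genes described here are 10 metabolic nuclear receptors of the hepatocyte, Ppara, Pparg, Ppard, Nr1h3, Nr1i2, Nr1i3, Rxra, Nr5a2, Hnf4a and Esrra. They were chosen by name out of 46078 genes in the table, for their known roles in liver lipid, bile acid and drug metabolism. The choice was made with earlier results of these data known. All 10 were among the 15075 genes with enough counts to be tested. Poly(A) RNA of whole mouse liver was sequenced in 4 groups of 4 libraries, 16 in all. The mice were males of the C57BL6/J strain according to the methods (the sample labels spell it C56B6/J), aged 8 weeks when the diets began. They carried no engineered allele and were kept for 16 weeks on CD, the control diet, or on HFD, which takes 60% of its calories from fat. In each diet, one group was fed (CD fed, HFD fed) and one was fasted for 16 h before the liver was taken (CD fast, HFD fast). The 2 feeding states in 2 diets ask whether the receptor transcripts follow fasting, follow the diet, or respond to fasting differently in the 2 diets.

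Nuclear receptors are transcription factors with a DNA-binding domain and a pocket that in many members holds a small lipophilic ligand, so that a fatty acid, an oxysterol or a drug can switch a set of genes. Many of them bind DNA as a pair with the retinoid X receptor. In the hepatocyte, PPARα drives fatty acid oxidation and ketogenesis during fasting, LXRα responds to oxysterols, PXR and CAR induce the enzymes that clear drugs and bile acids, and HNF4α holds up the hepatocyte programme as a whole. The abundance of a receptor's transcript is a separate quantity from its activity, which also depends on ligand, partner and coregulator.

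Library totals ran from 41364448 to 57583153 counts, with every CD fed library deeper than any other. The receptors were well covered, from a mean of 408 counts per library for Ppard to 40015 for Hnf4a. Summed over 8 hepatocyte markers (Alb, Apoa1 and others), the level was between 84709 and 146313 CPM (read counts scaled to a common library total) in every library, as the tissue label implies, against 8.64 to 24.7 CPM for 7 lymphocyte markers. The scaling is the TMM method of edgeR. HFD fast replicate 4 was the lowest of its group for 8 of the 10 receptors and CD fast replicate 1 for 6 of them. Their median deviations from the group mean were -0.21 and -0.22 on the log2 scale, where that of all genes tested was 0.00 in both libraries, so the receptor calls that turn on either library are given with and without it.

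Per kilobase of merged exon, which makes genes comparable, the receptors spanned more than 100-fold. Hnf4a was the most abundant in all 4 groups, at 171 ± 9.33 CPM per kb in CD fed livers (SD, n = 4), followed there by Rxra at 89.8 ± 7.53. Ppara (52.8 ± 4.30), Nr1i3 (47.9 ± 13.2), Nr1h3 (40.3 ± 1.86) and Nr1i2 (36.8 ± 2.90) formed a middle tier in which each overlapped its neighbour in the order. Nr5a2 (9.38 ± 1.26), Esrra (4.66 ± 0.597), Pparg (3.08 ± 1.03) and Ppard (1.27 ± 0.341) came last, with only Esrra and Pparg overlapping among these neighbours. In the fasted groups Nr1i3 moved up the order, to 107 ± 21.6 CPM per kb with CD and 137 ± 66.6 with HFD, where its libraries overlapped those of Hnf4a (mean 139, from 125 to 149). These places and the span depend on the length used. With the median coding transcript of each gene in place of its merged exons, the CD fed means ran from 327 CPM per kb for Hnf4a to 5.14 for Pparg, with Ppard in place 9, and Nr1i3 was first in both fasted groups, because its merged exons cover 4.414 kb and its median coding transcript 1.387 kb.

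**Figure D1:**
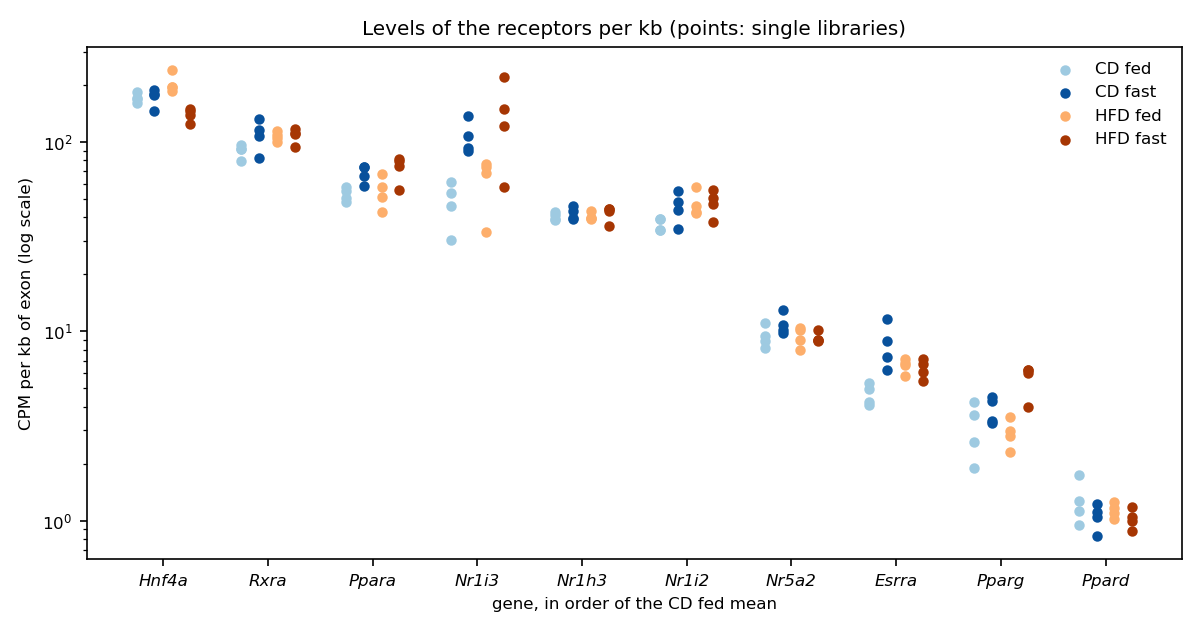
CPM per kb of merged exon (log axis) for the 10 receptors, ordered by their CD fed mean; each point is 1 library and colours mark the 4 groups. Hnf4a and Rxra lie at the top and Ppard at the bottom, and the Nr1i3 points rise from the fed to the fasted groups with a wide spread in HFD fast.

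Within the PPAR, RXR, LXR, HNF4, NR5A and ERR families 1 gene held most of the transcripts. Ppara made up 91.5% to 93.2% of the summed level per kb of the 3 PPAR genes in the 4 group means, and Rxra 89.5% to 90.9% of the 3 RXR genes. Nr1h3, which encodes LXRα, held 76.7% to 80.5% against Nr1h2 (LXRβ). Hnf4g was at 0.0162% to 0.0357% of the HNF4 pair, and Nr5a1 was listed at 0 in every CD library. Esrra held 84.1% to 92.5% of the ERR family. The balance of CAR and PXR was the one that shifted most with fasting. Nr1i3 was 55.7% ± 8.64 of that pair in CD fed and 70.0% ± 3.61 in CD fast (SD, n = 4). It went from 56.0% ± 8.77 to 71.8% ± 8.45 between the fed and fasted HFD groups. The lowest fed libraries were at 43.6% with CD and 44.0% with HFD. These shares rest on merged exons. Per kb of median coding transcript, Nr1i3 means were 153 and 339 CPM in CD fed and CD fast, and Nr1i2 means 36.8 and 45.4. With that length Nr1i3 holds a larger share and the shift is smaller.

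The starts of the 2 receptor genes that rose with fasting in CD livers, Nr1i3 and Esrra, are shown so that the sequence upstream of them can be read beside their values. They are the 250 bases before the annotated start from RefSeq on GRCm38.p6, read 5′ to 3′ on the strand of the gene, Nr1i3 from chr1:171213720-171213969 (plus strand) and Esrra from chr19:6921809-6922058 (minus strand). Capitals mark the E-box CACGTG in Nr1i3 and the GC box GGGCGG, here on the other strand as CCGCCC, in Esrra.
Nr1i3: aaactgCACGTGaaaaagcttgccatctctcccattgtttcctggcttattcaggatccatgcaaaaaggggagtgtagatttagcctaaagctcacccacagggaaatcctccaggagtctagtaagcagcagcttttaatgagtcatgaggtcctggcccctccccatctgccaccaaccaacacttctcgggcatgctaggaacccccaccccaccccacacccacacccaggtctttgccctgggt
Esrra: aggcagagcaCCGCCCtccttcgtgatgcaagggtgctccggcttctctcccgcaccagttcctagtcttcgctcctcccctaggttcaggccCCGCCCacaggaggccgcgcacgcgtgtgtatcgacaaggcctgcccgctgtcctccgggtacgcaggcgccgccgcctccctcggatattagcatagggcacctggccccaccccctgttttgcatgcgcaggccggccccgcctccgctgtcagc

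A set of 5 motifs was searched on both strands of all 32851 such windows, 16 of which belong to the 10 receptors. The E-box was in 6.02% of all windows and, among the receptors, only in that of Nr1i3, starting 244 bases before the start. The GC box was in 32.7% of all windows and in 7 receptor windows, those of Esrra (starting 240 and 157 bases before the start), Hnf4a, Ppara, Ppard, Pparg and Rxra. The nuclear receptor half-site AGGTCA was in 14.0% of all windows and in 4 receptor windows, of Nr5a2, Pparg and Rxra. The ERR element TNAAGGTCA (1.14% of all windows), which contains the half-site, and the exact direct repeat AGGTCANAGGTCA (0.0335%), which contains it on either side of 1 base, were in none of the 16. A match is a string of letters and was not tested as a binding site.

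**Figure D2:**
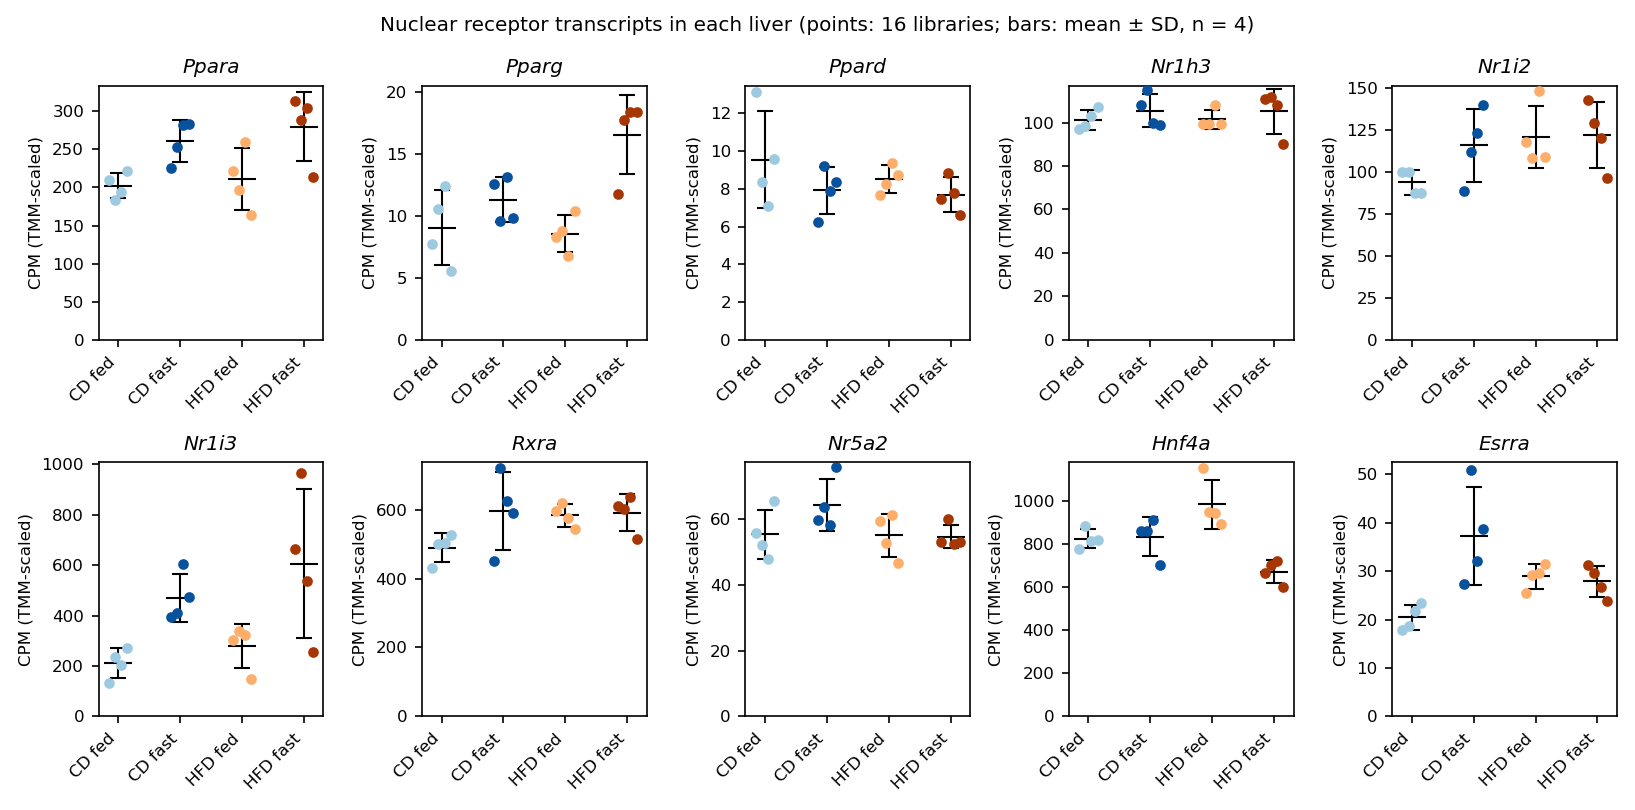
TMM-scaled CPM (linear axis from 0) of the 10 receptors in the 16 livers; points are libraries and bars are the mean ± SD of each group (n = 4). Esrra is higher in CD fast than in CD fed and flat between the HFD groups, Hnf4a is lowest in HFD fast, and Pparg is highest in HFD fast.

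Fasting in CD livers raised 2 of the 10 receptors and lowered none at an adjusted p under 0.05 (edgeR's quasi-likelihood test with Benjamini-Hochberg adjustment over all genes tested), where 25.2% of all genes tested passed in either direction and 13.7% rose. The 2 were Esrra and Nr1i3. The median change of the 10 was 0.30 on the log2 scale, from -0.27 (Ppard) to 1.15 (Nr1i3), against -0.01 over all genes tested. In these bulk samples, fewer cells of a type and less RNA per cell cannot be told apart. Of all 15075 genes tested, 1731 fell with fasting in CD. Among markers of non-parenchymal cells, 3 of 8 Kupffer cell and macrophage markers, 4 of 8 endothelial markers and 2 of 8 stellate markers fell. Their summed levels were 271 to 524 CPM with feeding and 183 to 305 with fasting for the Kupffer list, 303 to 349 and 220 to 293 for the endothelial list, and 216 to 283 and 132 to 217 for the stellate list. No marker of these 3 lists was at 0 throughout a group, and their part in the receptor values was not tested.

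Fasting in HFD livers raised 2 receptors, Pparg and Nr1i3, and lowered 1, Hnf4a, against 8.86% of all genes tested in either direction, 4.78% higher and 4.07% lower. The median change of the 10 was 0.02, from -0.55 (Hnf4a) to 1.12 (Nr1i3), against 0.01 over all genes tested. None of the 24 markers of Kupffer, endothelial and stellate cells passed in this comparison. The call for Nr1i3 was the weakest of the 3.

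No receptor passed between the diets. HFD against CD in fed livers gave 0 of 10 calls by edgeR and 3 at an unadjusted p under 0.05, where 7.50% and 22.9% of all genes tested passed, and DESeq2 called 1, Esrra. In 4 receptors, Nr1i2, Rxra, Hnf4a and Esrra, every HFD fed library was nonetheless above every CD fed library, a pattern seen in 7.20% of all genes tested. HFD against CD in fasted livers gave 0 calls by edgeR and 3 at an unadjusted p under 0.05, where 7.70% and 25.9% of all genes tested passed, and DESeq2 called 1, Hnf4a. The interaction, the difference between the fasting responses in the 2 diets, passed for 1 receptor, Esrra, where 2.59% of all genes tested passed.

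**Figure D3:**
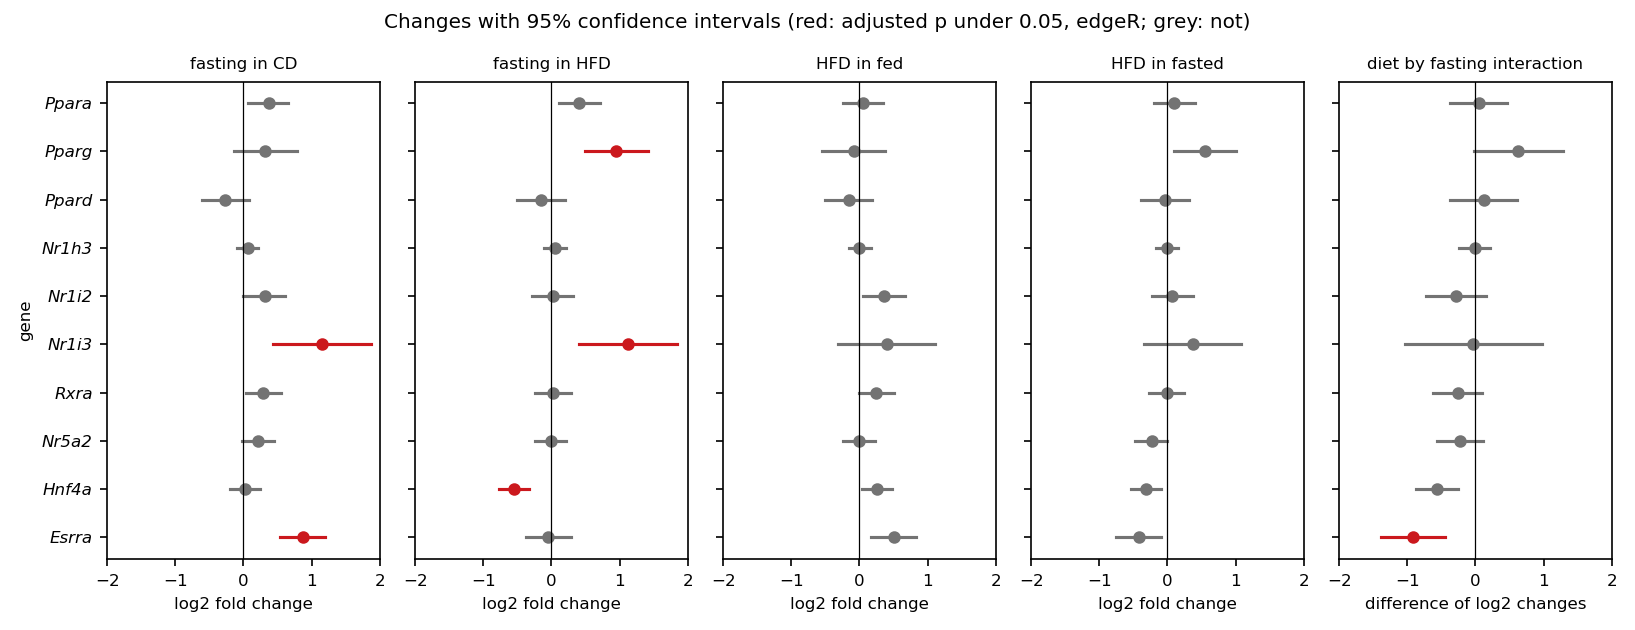
Log2 fold changes of the 10 receptors in the 4 pairwise comparisons, and the difference of the log2 fasting responses (HFD minus CD) in the last panel, with 95% confidence intervals; red marks an adjusted p under 0.05. The red points are Nr1i3 and Esrra for fasting in CD, Pparg, Nr1i3 and Hnf4a for fasting in HFD, and Esrra for the interaction.

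Among the lipid sensors, Ppara encodes the fatty acid receptor of the fasted liver. It read 210, 184, 194 and 222 CPM in CD fed replicates 1 to 4 and 226, 253, 282 and 283 in the CD fast replicates. The HFD fed replicates gave 222, 197, 260 and 164 CPM and the HFD fast replicates 313, 288, 305 and 214. All CD fast libraries lay above all CD fed libraries, while the HFD groups overlapped through HFD fast replicate 4. The fasting change was 0.37 ± 0.14 on the log2 scale (SE) in CD (adjusted p = 0.0680, edgeR) and 0.41 ± 0.14 in HFD (adjusted p = 0.0786), so neither passed in this test. Fasting in CD passed in 3 of 9 other settings, DESeq2, upper quartile scaling and only the groups compared (lowest adjusted p = 0.0323), and fasting in HFD in 3, DESeq2, upper quartile scaling and total count scaling (lowest 0.0309). Without HFD fast replicate 4 both passed, at adjusted p = 0.0387 and 0.0283 (edgeR). The first also passed without HFD fed replicate 4 (0.0442) and the second without HFD fed replicate 3 (0.0419). HFD fast replicate 4 and HFD fed replicate 4 are not part of the CD comparison, whose log2 change stayed at 0.37 without either. Averaged over the diets, a contrast added after the data had been seen, Ppara was 1.31-fold higher in fasted livers (95% interval 1.13 to 1.52, adjusted p = 0.00879). The diet changed Ppara by 0.05 ± 0.14 in fed and 0.10 ± 0.14 in fasted livers, with intervals of -0.24 to 0.35 and -0.20 to 0.40.

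Pparg, the receptor that drives fat storage in adipocytes and is scarce in normal hepatocytes, read 7.71, 10.6, 12.4 and 5.59 CPM in CD fed replicates 1 to 4 and 12.6, 9.62, 13.2 and 9.88 in the CD fast replicates. The HFD fed replicates gave 8.30, 8.80, 6.79 and 10.4 CPM and the HFD fast replicates 11.8, 17.8, 18.4 and 18.4. The CD groups overlapped, and all HFD fast libraries were above all HFD fed libraries. Fasting raised Pparg 1.94-fold in HFD livers (log2 0.95 ± 0.22, adjusted p = 0.0156, edgeR), and in CD livers the change was 0.32 ± 0.22 (adjusted p = 0.297). The responses in the 2 diets were not shown to differ (interaction 0.63 ± 0.31, adjusted p = 0.261). Without HFD fed replicate 1 the call in HFD was lost at adjusted p = 0.0525 (edgeR), with a log2 change of 0.94. That fit called 505 of all genes tested for fasting in HFD, against 1335 with all libraries. Of 7 adipocyte markers, 3 had enough counts to be tested. With fasting in HFD 1 of them rose and 1 fell, beside 4.78% and 4.07% of all genes tested. The summed adipocyte level was 29.7 to 44.0 CPM in fed and 29.6 to 110 in fasted HFD livers, and Lep was at 0 in all libraries of both CD groups. The part of fat cells in the Pparg values was not tested.

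Ppard, a widely expressed fatty acid receptor, was the scarcest per kb of merged exon and stayed between 6.25 and 13.1 CPM over all 16 libraries. Its largest change was -0.27 ± 0.16, for fasting in CD (interval -0.61 to 0.08, adjusted p = 0.248, edgeR). Nr1h3, the oxysterol receptor LXRα that controls cholesterol efflux and lipogenic genes, varied least of all. Its group means were 101 ± 4.68, 106 ± 7.46, 102 ± 4.44 and 105 ± 10.2 CPM over the groups CD fed, CD fast, HFD fed and HFD fast. Its 4 pairwise changes lay between -0.01 and 0.06, each with an SE of 0.08, and their 95% intervals reached from -0.17 to 0.22, so changes above 1.17-fold upwards lay outside every interval.

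Of the 2 xenobiotic sensors, Nr1i2 encodes PXR, which induces Cyp3a genes. Its CD libraries ran from 87.3 to 100 CPM when fed and 88.3 to 140 when fasted, and its HFD libraries from 108 to 148 and 96.1 to 143. No HFD fed library overlapped CD fed, with a change of 0.36 ± 0.14 (adjusted p = 0.144, edgeR). Fasting in CD gave 0.31 ± 0.14 (adjusted p = 0.135), and without CD fast replicate 1, its lowest library of that group, the adjusted p was 0.0420.

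Nr1i3 encodes CAR, which induces some Cyp2b genes, and lies at chr1:171213970-171220701 (GRCm38). It read 134, 237, 204 and 271 CPM in CD fed replicates 1 to 4 and 394, 410, 603 and 474 in the CD fast replicates. The HFD fed replicates gave 303, 338, 324 and 148 CPM and the HFD fast replicates 664, 966, 539 and 257. No library overlapped between the CD groups, and in HFD the groups overlapped because HFD fast replicate 4 was below 3 of the 4 fed libraries. Fasting raised Nr1i3 2.22-fold in CD (95% interval 1.35 to 3.66, adjusted p = 0.0215, edgeR) and 2.18-fold in HFD (1.33 to 3.59, adjusted p = 0.0498), and the interaction was -0.03 ± 0.47 on the log2 scale. The CD call was lost without CD fed replicate 1 (adjusted p = 0.0646) and without CD fast replicate 3 (0.0542). The HFD call stood at the threshold. It was kept in 4 of 9 other settings, with an adjusted p of up to 0.107 with only the groups compared and 0.0571 with the replicate block. It was also kept in 2 of the 16 fits that each leave out 1 library. Their adjusted p ran from 0.0123 without HFD fast replicate 4 to 0.138 without HFD fast replicate 2. Without CD fast replicate 1, which is not part of the HFD comparison, it was 0.0567 at a log2 change of 1.12. Averaged over the diets the rise was 2.20-fold (1.55 to 3.13, adjusted p = 0.00258), and this was kept in all 16 such fits, where the highest adjusted p was 0.00608.

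Nr1i3 also had the widest spread between livers of 1 group, and the libraries lowest in it stood apart in other genes. CD fed replicate 1, HFD fed replicate 4 and HFD fast replicate 4 were the lowest of their groups, at 134, 148 and 257 CPM. They had the highest lymphocyte marker sums of their groups, at 22.3, 16.4 and 24.7 CPM. Their stellate sums, at 283, 389 and 389 CPM, were also the highest. CD fed replicate 1 and HFD fed replicate 4 had the highest Kupffer (524 and 416 CPM) and hepatocyte sums, while HFD fast replicate 4 did not. All 3 had the lowest adipocyte sums of their groups, at 21.6, 29.7 and 29.6 CPM. The same 3 libraries were the lowest of their groups for Esrrg, a relative of Esrra, at 0.401, 0.573 and 1.76 CPM. The lowest CD fast library for Nr1i3, replicate 1, had instead the lowest stellate sum of its group, 132 CPM. These were picked out after their values were seen, and whether the cell markers have a part in the Nr1i3 levels was not tested. The exons of Nr1i3 share 3304 of 4414 bp (74.9%) with Tomm40l, a mitochondrial import gene on the opposite strand. Alignment was set for a first-strand library, while the strand setting of the counting itself was not given in the sources used here, so reads of the overlap may have been left out or given to either gene. Tomm40l went the opposite way with fasting, by -0.61 ± 0.19 in CD (adjusted p = 0.0293, edgeR) and -0.65 ± 0.19 in HFD (adjusted p = 0.0461). Its CD libraries were at 13.7 to 16.8 CPM when fed and 7.20 to 11.6 when fasted, and its overlapping HFD libraries at 10.5 to 16.4 and 5.91 to 11.4. Tomm40l was highest of its group in CD fed replicate 1, HFD fed replicate 4 and HFD fast replicate 4, at 16.8, 16.4 and 11.4 CPM. In CD fast its highest library was replicate 2 (11.6 CPM), not replicate 1 (11.1 CPM), the lowest for Nr1i3. The part of the exon overlap in these values was not tested.

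**Figure D4:**
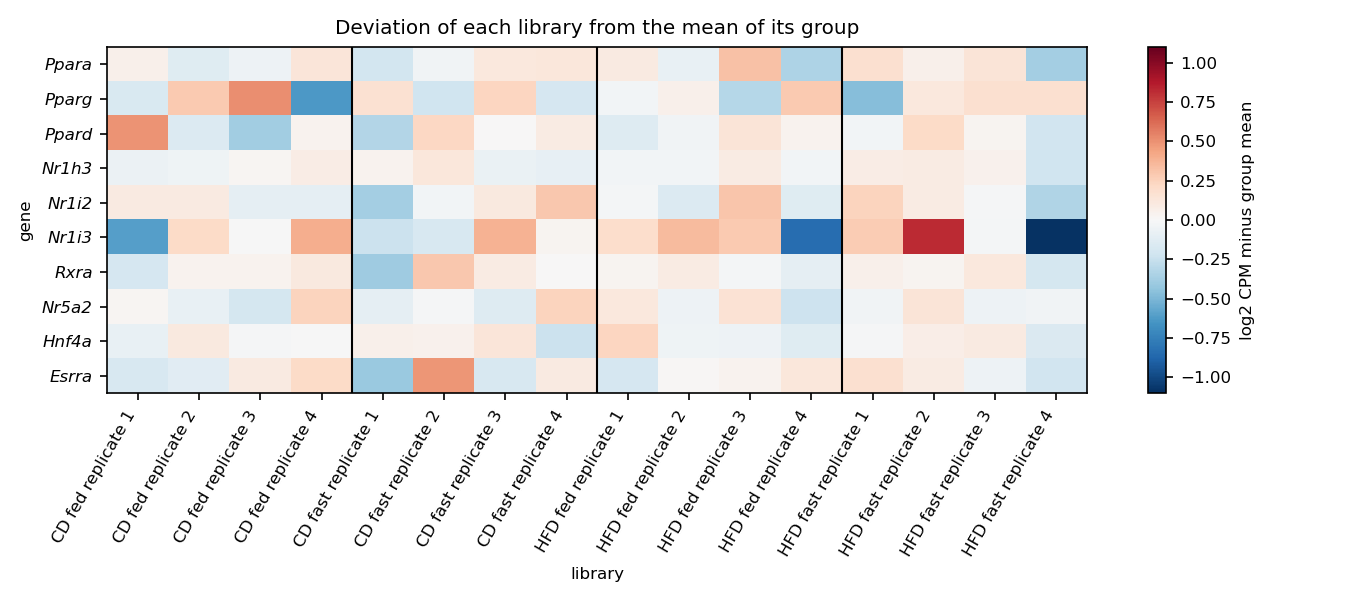
Deviation of each library from its group mean (log2 CPM, colour) for the 10 receptors (rows of the map) in the 16 libraries (columns). HFD fast replicate 4 and CD fast replicate 1 are blue for most receptors, and the darkest cells are Nr1i3 in HFD fast replicate 4, HFD fed replicate 4 and HFD fast replicate 2.

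Rxra encodes the shared partner of the PPARs, LXRα, PXR and CAR. Its CD libraries ran from 431 to 526 CPM when fed and 450 to 723 when fasted, and its HFD libraries from 543 to 621 and 515 to 638. Its change with fasting in CD was 0.29 ± 0.12 (adjusted p = 0.100, edgeR), and 0.40 without CD fast replicate 1, when the adjusted p was 0.0139. Without that library the change averaged over the diets, 0.21, also passed (adjusted p = 0.0404). The HFD fed libraries all lay above the CD fed libraries, by 0.25 ± 0.12 (adjusted p = 0.235). The minor partner Rxrg, at a few CPM, rose 1.84-fold with fasting in CD (adjusted p = 0.000103) and 1.45-fold in HFD (adjusted p = 0.0116).

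The remaining receptors act largely without a known switching ligand. Hnf4a, at chr2:163506808-163572910, read 778, 886, 816 and 822 CPM in CD fed replicates 1 to 4 and 864, 860, 912 and 705 in the CD fast replicates. The HFD fed replicates gave 1153, 948, 944 and 896 CPM and the HFD fast replicates 666, 705, 721 and 602. All HFD fast libraries were below all HFD fed libraries, and the CD groups overlapped. Fasting lowered Hnf4a to 0.683 of the fed level in HFD (log2 -0.55 ± 0.10, adjusted p = 0.00601, edgeR) and changed it by 0.02 ± 0.10 in CD (interval -0.20 to 0.24). The fall in HFD was kept in all 16 leave-one-out fits and in all 9 other settings. HFD against CD in fasted livers gave -0.31 ± 0.10 (adjusted p = 0.0763), or 0.0370 without CD fast replicate 4. In fed livers it gave 0.26 ± 0.10 (adjusted p = 0.148), with all HFD libraries above all CD libraries. The difference between the diets in the fasting response was -0.57 ± 0.15 with an adjusted p of 0.0527, just outside the threshold; 4 of 8 other settings, DESeq2 among them (adjusted p = 0.00228), put it inside. Of 8 hepatocyte markers, 1 fell with fasting in HFD (12.5%, beside 4.07% of all genes tested that fell). Their median change was -0.56, and their sum was 120837 to 146313 CPM in the fed and 84709 to 118740 in the fasted HFD libraries, with no overlap. The sum itself was not tested, nor was the part of these markers in the Hnf4a value.

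Nr5a2 (LRH-1, a regulator of bile acid synthesis) was at 46.8 to 75.8 CPM over the 16 libraries. Its changes ran from -0.23 ± 0.11 for HFD in fasted livers (adjusted p = 0.195, edgeR) to 0.22 ± 0.11 for fasting in CD (adjusted p = 0.165).

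Esrra encodes ERRα, which with the coactivator PGC-1α drives mitochondrial genes, and lies at chr19:6910977-6921813 (minus strand). It read 17.9, 18.6, 21.7 and 23.5 CPM in CD fed replicates 1 to 4 and 27.3, 50.8, 32.1 and 38.7 in the CD fast replicates. The HFD fed replicates gave 25.4, 29.2, 29.7 and 31.5 CPM and the HFD fast replicates 31.3, 29.6, 26.7 and 23.9. The CD groups did not overlap and the HFD groups did, and all HFD fed libraries were above all CD fed libraries. Fasting raised Esrra 1.82-fold in CD (log2 0.87 ± 0.16, adjusted p = 0.00117, edgeR), in all 16 leave-one-out fits and all 9 other settings, with an adjusted p of 0.00538 at most when 1 library was left out. In HFD the change was -0.05 ± 0.16 (interval -0.38 to 0.28). The interaction was -0.92 ± 0.22 (adjusted p = 0.0401), and it was kept in 6 of 16 leave-one-out fits, with an adjusted p of up to 0.0876 without CD fed replicate 2. It was lost without HFD fast replicate 4 (-0.85, adjusted p = 0.0733) and, of 8 other settings, with the replicate block (adjusted p = 0.0516). HFD against CD gave 0.50 ± 0.16 in fed livers (adjusted p = 0.0625) and -0.42 ± 0.16 in fasted livers (adjusted p = 0.107), so both differences entered the interaction. The first passed without CD fast replicate 1 (0.0355) or 2 (0.0220) and the second without CD fast replicate 1 (0.0457). Neither CD fast library is part of the fed comparison, whose change stayed at 0.50 in both fits.

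Averaged over the diets, 5 of the 10 receptors passed, Ppara, Pparg, Nr1i3 and Esrra upwards and Hnf4a downwards, where 28.8% of all genes tested passed. The 4 that rose stand beside 15.2% of all genes and the 1 that fell beside 13.6%. For Esrra (0.41 ± 0.11, adjusted p = 0.0125, edgeR) and Hnf4a (-0.27 ± 0.07, adjusted p = 0.0135) this average joins a called change in 1 diet with a small estimate in the other. That estimate was -0.05 in HFD for Esrra and 0.02 in CD for Hnf4a. The difference between the diets did not pass for Hnf4a (adjusted p = 0.0527, edgeR). Averaged over the feeding states, the changes with HFD ran from -0.12 (Nr5a2, adjusted p = 0.329) to 0.38 (Nr1i3, adjusted p = 0.305) by edgeR.

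The genes whose 4 group means were most like those of a receptor were sought among 7681 genes with a mean of at least 10 CPM, by the root mean square difference of the centred log2 means, for the 4 receptors whose means spanned 0.5 or more. Among those nearest to Hnf4a were Tspan33 (0.035) and Yod1 (0.043). Nearest to Esrra were Gtf2ird1 (0.021), Arl4a (0.044) and Aass (0.045), a lysine-degrading enzyme. Nearest to Pparg were Gas6 (0.078), Lgals3bp (0.091) and Tle3 (0.10), and nearest to Nr1i3 were Slc16a7 (0.11), Paqr7 (0.12) and Miga2 (0.13). With 4 means and so many genes such likeness is a description.

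The other 39 nuclear receptor genes listed included 29 that could be tested. Fasting in CD raised 4 and lowered 4 of them, 27.6% where 25.2% of all genes tested passed. Fasting in HFD raised 2 and lowered 1, and HFD lowered 3 in fed and 3 in fasted livers, 10.3% each time beside 8.86%, 7.50% and 7.70% of all genes. Fasting in CD raised Nr3c2, the mineralocorticoid receptor, 1.94-fold (adjusted p = 0.00276, edgeR), and lowered Nr0b2, the bile acid-induced corepressor SHP, to 0.354 (adjusted p = 0.0436) with overlapping libraries. Esr1, the oestrogen receptor α, had a fed level of 16.1 ± 5.52 CPM with CD and 6.24 ± 3.34 with HFD (adjusted p = 0.0262). Fasting in HFD raised Esr1 2.27-fold (adjusted p = 0.0433), with overlapping libraries. Nr1h2, the second LXR, was lower in HFD fast than in CD fast, at 33.8 ± 2.17 against 42.9 ± 5.51 CPM (adjusted p = 0.0415). Nr4a1 was lower there too (adjusted p = 0.0456), on CD fast values of 12.6 ± 18.6 CPM that overlapped HFD fast. Nr6a1 was the one gene of the list with an interaction (0.78 ± 0.18, adjusted p = 0.0344). That is 3.45% of the list's tested genes, near the 2.59% of all genes tested.

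Of 21 coregulators, fasting in CD raised 2 and lowered 3, or 23.8% beside 25.2% of all genes tested, and their median change was 0.03. Ppargc1a, which encodes the coactivator PGC-1α of PPARα and ERRα, rose from 10.6 ± 4.09 to 25.2 ± 17.3 CPM with fasting in CD (adjusted p = 0.0287, edgeR), with overlapping libraries. In HFD it was at 13.3 ± 2.16 and 10.4 ± 2.40 CPM. Carm1, an arginine methyltransferase, rose 1.49-fold in CD (adjusted p = 0.000298) and 1.24-fold in HFD (adjusted p = 0.0353). Lpin1, a phosphatidate phosphatase that can act as a coactivator, fell to 0.205 in CD (adjusted p = 0.00365) and to 0.113 in HFD (adjusted p = 0.00223). Lcor fell with fasting in CD, with overlapping libraries. Med1, a Mediator subunit, fell by 0.26 on the log2 scale with fasting in HFD (adjusted p = 0.0349). Fasting in HFD raised 1 and lowered 2 of the 21 (14.3%, beside 8.86% of all genes tested). HFD raised 3 coregulators in fed livers (14.3%, beside 7.50%), among them the corepressor complex subunit Tbl1xr1 (1.32-fold, adjusted p = 0.0218, edgeR). No coregulator passed by edgeR for HFD in fasted livers, where 7.70% of all genes did, while 7 of the 21 had an unadjusted p under 0.05, beside 25.9% of all genes, and DESeq2 called 2, where it called 1967 of 15057 genes.

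**Figure D5:**
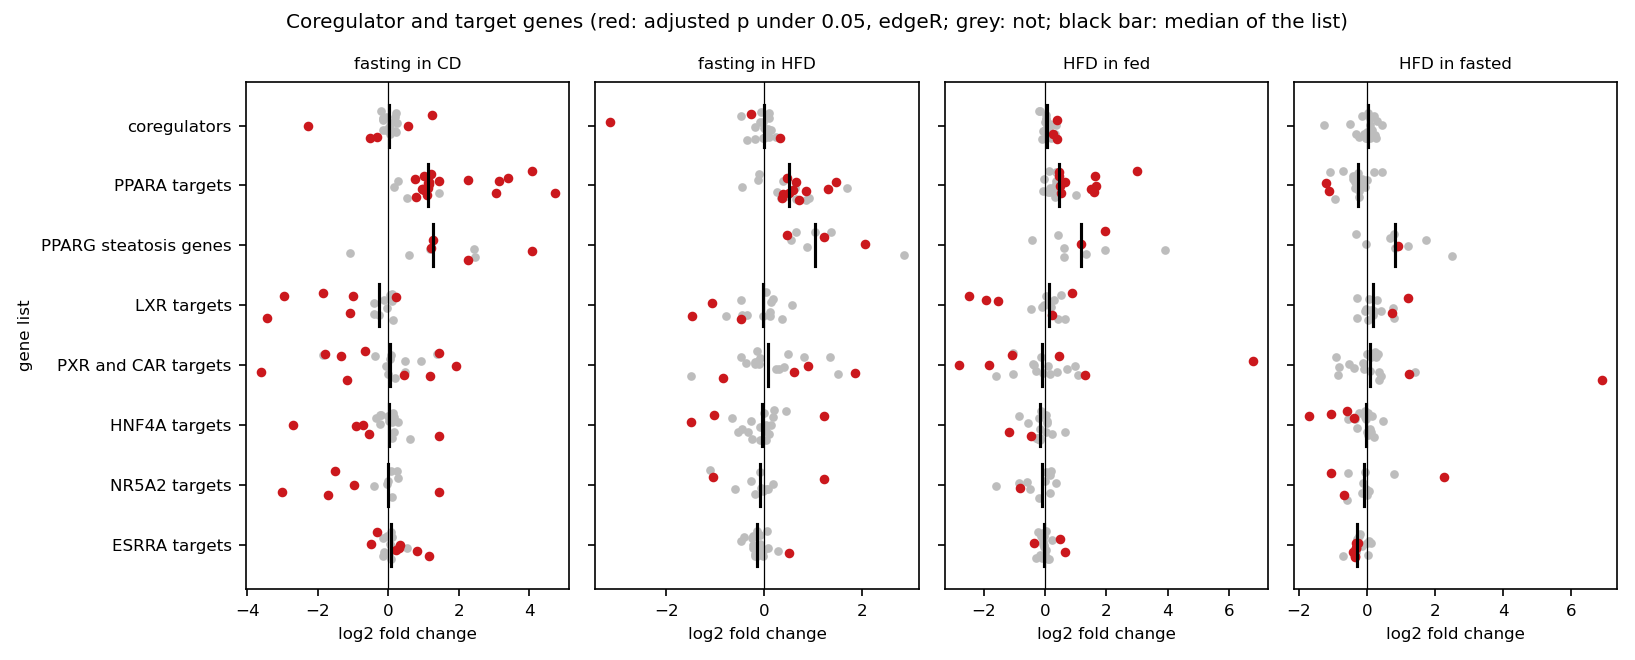
Log2 fold changes of coregulators and of target genes of the receptors in the 4 pairwise comparisons; each point is a tested gene, red marks an adjusted p under 0.05 and the black bar is the median of the list. The PPARA targets lie to the right for fasting in CD (median 1.13) and less far for fasting in HFD (median 0.51), and the PPARG steatosis genes also lie to the right (medians 1.26 and 1.05).

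Target genes were drawn from general knowledge, with earlier results of these data known. The lists share genes, such as Acadm and Cyp8b1. The shares of each list that passed stand beside 25.2% of all genes tested for fasting in CD, 8.86% for fasting in HFD, 7.50% for HFD in fed livers, 7.70% for HFD in fasted livers and 2.59% for the interaction, and medians beside -0.01 for fasting in CD and 0.01 in the other 3 pairwise comparisons. With only the groups compared in the fit, 23 calls of the 9 lists for HFD in fasted livers, the other nuclear receptors and coregulators included, came down to 2, Plin4 and Cyp2b9. Of 24 PPARA targets, fasting in CD raised 20 (83.3%) and lowered none (median 1.13). Fasting in HFD raised 10 (41.7%, median 0.51), HFD raised 10 in fed livers (41.7%, median 0.45) and lowered 2 in fasted livers (8.33%, near the share of all genes, median -0.26), and 8 (33.3%) had an interaction, all negative. Cyp4a14, a fatty acid hydroxylase, went from 394 ± 155 to 10410 ± 1186 CPM with fasting in CD and from 3143 ± 1466 to 4968 ± 2119 in HFD (interaction -4.06 ± 0.51, adjusted p = 0.00287, edgeR). Cyp4a10 went from 304 ± 69.7 to 5178 ± 1108 CPM and from 864 ± 381 to 2407 ± 736 CPM (interaction -2.61 ± 0.42, adjusted p = 0.00838). Ehhadh, a peroxisomal enzyme of fatty acid oxidation, was at 3633 ± 891 CPM in CD fast and 1565 ± 688 in HFD fast (adjusted p = 0.0250), with an interaction of -2.24 ± 0.43 (adjusted p = 0.0165). Acot2, a mitochondrial thioesterase, rose 2.47-fold with fasting in HFD (adjusted p = 0.0218), with overlapping libraries. Its interaction was -2.09 (adjusted p = 0.0287). The Cyp4a and Acot genes have near-identical neighbours, and how such reads were counted was not given in the sources used here. Ppara itself changed by 0.37 and 0.41 with fasting in the 2 diets, with an interaction of 0.05 ± 0.20.

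Of 9 fat storage genes listed for PPARG, fasting raised 4 in CD (44.4%, median 1.26) and 3 in HFD (33.3%, median 1.05). HFD raised 2 in fed (22.2%, median 1.18) and 1 in fasted livers (11.1%, near the share of all genes, median 0.82). None of the 9 fell. Plin4, a lipid droplet coat gene, was at 20.3 ± 2.39, 98.1 ± 6.89, 79.7 ± 28.8 and 187 ± 22.8 CPM over the groups CD fed, CD fast, HFD fed and HFD fast, and it passed in all 4 pairwise comparisons. Cidec, which enlarges lipid droplets, was at 8.96 ± 6.80, 150 ± 81.6, 35.1 ± 25.9 and 148 ± 34.8 CPM. Cd36, a fatty acid transporter, was 2.26-fold higher with HFD in fed livers (adjusted p = 0.0308, edgeR), with overlapping libraries. Pparg itself did not pass with fasting in CD, and whether these genes depended on it was not tested.

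Of 15 LXR targets, fasting in CD raised 1 and lowered 5 (40.0% in all, median -0.26) and fasting in HFD lowered 3 of the 15 (median -0.03). HFD raised 2 and lowered 3 in fed livers (33.3%) and raised 2 in fasted livers (13.3%). Fasn, the fatty acid synthase, fell from 1129 ± 317 to 104 ± 14.7 CPM with fasting in CD and from 387 ± 44.7 to 139 ± 26.9 CPM in HFD, and its interaction was 1.97 ± 0.26 (adjusted p = 0.00287, edgeR). Scd1, the stearoyl-CoA desaturase, fell from 17829 ± 4658 to 2293 ± 1238 CPM with fasting in CD (adjusted p = 0.00403). Srebf1, the lipogenic transcription factor, was 2.31-fold higher in HFD fast than in CD fast (adjusted p = 0.00512). Pltp, which moves phospholipids between lipoproteins, was at 0.262 of its CD level in the HFD fed group (adjusted p = 0.000238). Mylip, which degrades the LDL receptor, was 1.86-fold higher with HFD in fed (adjusted p = 0.00172) and 1.67-fold higher in fasted livers (adjusted p = 0.00777). These genes moved in both directions beside an Nr1h3 level that stayed within the intervals given above.

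Of 20 tested PXR and CAR targets, fasting in CD raised 4 and lowered 5 (9 of 20 in all, median 0.06) and fasting in HFD raised 3 and lowered 1 (4 of 20, median 0.08), both above the share of all genes. Alas1, the first enzyme of haem synthesis, rose 3.75-fold with fasting in CD (adjusted p = 0.0186, edgeR), with overlapping libraries. Cyp2c29 fell to 0.290 (adjusted p = 0.00770), and Cyp2c55 fell from 6.28 ± 1.95 to 0.512 ± 0.134 CPM. Slco1a4, an uptake transporter, rose 3.65-fold with fasting in HFD (adjusted p = 0.0218), with overlapping libraries. Gstm1, a glutathione transferase, fell there to 0.555 (adjusted p = 0.00628). HFD raised 3 and lowered 3 in fed livers (30.0%) and raised 2 in fasted livers (2 of 20, near the share of all genes). Cyp2b9 had a fed level of 0.558 ± 0.412 CPM with CD and 61.8 ± 67.9 with HFD, and a fasted level of 1.42 ± 1.65 and 178 ± 183 (adjusted p = 0.00187 and 0.00347, edgeR). The libraries did not overlap in either comparison, and the dependence of Cyp2b9 on PXR or CAR was not tested. Por, the electron donor of the cytochromes, was 2.47-fold higher with HFD in fed livers (adjusted p = 0.00889), and Ces2a was at 0.281 of its CD fed level (adjusted p = 0.00178). The Cyp2b, Cyp2c and Gstm genes belong to families with similar sequences and are uncertain to that extent.

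Of 20 HNF4A targets, fasting in HFD, where Hnf4a fell, raised 1 and lowered 2 (3 of 20 in all, median -0.05), and fasting in CD raised 1 and lowered 4 (25.0%, median 0.01), a share like that of all genes. In HFD the 2 that fell were G6pc, the glucose-6-phosphatase, from 459 ± 85.9 to 164 ± 55.0 CPM (adjusted p = 0.0259, edgeR), and Pklr, the liver pyruvate kinase, to 0.488 (adjusted p = 0.0307). Cyp8b1, a bile acid synthesis enzyme, rose 2.34-fold there (adjusted p = 0.00997) and 2.70-fold in CD (adjusted p = 0.00111). Ttr, transthyretin, fell to 0.528 in CD (adjusted p = 0.00436). HFD lowered 2 targets in fed livers (2 of 20, near the share of all genes), Pklr, with overlapping libraries, and Apoc3. In fasted livers HFD lowered 4 of 20, among them G6pc to 0.305 (adjusted p = 0.0156) and Cyp8b1 to 0.479 (adjusted p = 0.0218). None of the 4 was called with only the groups compared, and 2 targets were called without CD fast replicate 2 or without HFD fast replicate 4.

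Of 12 tested NR5A2 targets, fasting in CD raised 1 and lowered 4 (41.7% in all, median -0.01) and fasting in HFD raised 1 and lowered 1 (16.7%, median -0.08). Abcb11, the bile salt export pump, was at 977 ± 64.6, 301 ± 96.1, 655 ± 77.8 and 315 ± 41.6 CPM over the groups CD fed, CD fast, HFD fed and HFD fast, and fell in both diets (adjusted p = 2.52e-05 and 0.00357, edgeR). HFD lowered 1 target in fed livers, Acsl3 (8.33%, near the share of all genes), and in fasted livers raised 1 and lowered 2, Cyp8b1 and Apom (25.0%). These calls were all lost with only the groups compared, without CD fast replicate 2 or without HFD fast replicate 4, and 1 target was called without CD fast replicate 1 or without HFD fast replicate 3.

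Of 21 ESRRA targets, fasting in CD raised 5 and lowered 2 (33.3% in all, median 0.08) and fasting in HFD raised 1 (4.76%, below the share of all genes, median -0.14). Those that rose in CD included Acadm, which encodes the medium-chain acyl-CoA dehydrogenase (2.26-fold, adjusted p = 1.83e-05, edgeR). Those that fell were Cs, the citrate synthase (0.708, adjusted p = 0.00193), and Sdha, a subunit of succinate dehydrogenase (0.796, adjusted p = 0.0260). HFD in fasted livers lowered 7 and raised none (33.3%, median -0.30). Among them were the respiratory chain genes Cycs (0.758, adjusted p = 0.0397) and Cox6a1 (0.777, adjusted p = 0.0391), both with overlapping libraries. None of the 21 was called in this comparison with only the groups compared, without HFD fast replicate 3 or without HFD fast replicate 4, and 1 was called without CD fast replicate 2 or 3. Of all 15075 genes tested, 460 rose and 701 fell in the same comparison. Among markers of other cells, 3 of 8 endothelial markers (median 0.43) and 1 of 8 stellate markers (median 0.51) rose. None of 8 Kupffer cell and macrophage markers passed (median 0.42), and 1 of 8 hepatocyte markers fell (median -0.40). The stellate sums were 132 to 217 CPM with CD and 222 to 389 with HFD in the fasted groups, with no overlap, and the endothelial sums were 220 to 293 and 273 to 356. The part of these 4 marker lists in the target values was not tested. HFD in fed livers raised 2 targets and lowered 1 (14.3%). Idh3a, a subunit of isocitrate dehydrogenase, was at 26.2 ± 2.39, 33.1 ± 7.92, 36.6 ± 4.65 and 27.5 ± 1.63 CPM over the groups CD fed, CD fast, HFD fed and HFD fast, and was the one gene of this list (4.76%) with an interaction (-0.75 ± 0.19, adjusted p = 0.0474). The changes of Esrra itself were 0.87 for fasting in CD, -0.05 for fasting in HFD, 0.50 and -0.42 for HFD in fed and fasted livers, and -0.92 for the interaction.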

How the data were processed

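Per the labels and the methods, the authors sequenced poly(A) libraries on a HiSeq 2500 (paired reads of 100 bp), aligned them as first-strand libraries with TopHat2 2.0.11 to GRCm38, with annotation from Illumina iGenomes, and counted genes with featureCounts. The deposited values are raw read counts per gene and library. The submitters' processing notes give CASAVA 1.8.4 for demultiplexing, where the methods name another version. Whether the counting itself used strand, how it treated reads with several matches and which annotation release it read were not given in the sources used here. Symbols, exon lengths and positions came from GENCODE M21 (45229 of 46078 gene IDs matched) and start windows from RefSeq.

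Here edgeR 4.0.16 (R 4.3.3) was run on those counts. Genes were filtered by filterByExpr, scaled by TMM and fitted with the quasi-likelihood test in 1 model holding the 4 groups (residual df 12, with a common variation coefficient of 19.2%), with Benjamini-Hochberg adjustment over the 15075 genes tested and a threshold of 0.05. Tests were two-sided. CPM per library is the count over the TMM-scaled total. A count of 3 corresponds to 0.0536 to 0.0767 CPM. The test was checked on simulated counts with known changes. Libraries of 1 group differed far beyond counting noise (lowest chi-square per gene 37.5), so none was a duplicate. Same-numbered libraries come from different mice. Their deviations correlated above 0.1 in all 4 pairs of CD fed and CD fast (0.139 to 0.25), a hint of pairing from the data alone, and in no other comparison did all 4 pairs. The labels give separate samples, and p-values measure the spread between them.

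The receptors and gene lists were chosen with earlier results of these data known, so they lend no independent support. Named genes are the 10 receptors and, per list and pairwise comparison, up to 2 genes with the largest change in each direction among those called with a mean of at least 1 CPM, and per list up to 2 genes with the smallest p for the interaction. A few genes that this rule names are not reported here. Esrrg and Tomm40l were named after their values were seen. Alternatives were DESeq2 1.42.0, limma-voom (limma 3.58.1), scaling by total count, by upper quartile or by DESeq2's size factors, no filter, a minimum of 1 CPM, only the groups compared, a replicate block and leaving out each library. With 1 fit for all 4 groups, leaving out a library also reaches comparisons that do not hold it, through the scaling, shared spread and adjustment. The averaged contrasts were added after the data had been seen.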

Additional observations from a re-analysis of the deposited data

Results flagged for a closer look

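A library that stood far from the others of its group was found in 4 of 40 groups of 4 libraries, where chance gives about 1 in 20. Pparg in HFD fast replicate 1 was low at 11.8 CPM. Nr1h3 was high in HFD fed replicate 3 at 108 CPM and low in HFD fast replicate 4 at 90.0 CPM. Nr5a2 was high in HFD fast replicate 2 at 60.1 CPM.

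The fasting responses of 11 named genes differed between the diets by the interaction test of edgeR. Up to 2 genes per list were named for the smallest p in this test, so the count partly follows from that choice. Of all genes tested, 2.59% passed. The difference on the log2 scale (HFD minus CD) was -0.92 for Esrra, -4.06 for Cyp4a14, -2.61 for Cyp4a10, -2.24 for Ehhadh, -2.09 for Acot2 and -0.75 for Idh3a. It was 1.97 for Fasn, 1.64 for Pltp, 1.65 for Pklr, 3.15 for Cyp2c55 and 0.78 for Nr6a1. The Cyp2c55 value rests on means under 1 CPM in 3 of the 4 groups.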

How the results depend on the processing

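The rise of Esrra in CD, the fall of Hnf4a in HFD and the 5 calls averaged over the diets held in every alternative run, and Pparg in HFD in all but 1. Counts of receptors called moved more. For fasting in CD they ranged from 1 to 4 when 1 library was left out (2 with all), and for fasting in HFD from 1 to 4 (3 with all). For HFD in fed livers they ranged from 0 to 1, with 3 under total count scaling (Nr1i2, Hnf4a and Esrra), 1 under DESeq2 and 1 with only the groups compared. For HFD in fasted livers they ranged from 0 to 1, with 1 under total count scaling (Pparg) and 1 under DESeq2, and for HFD averaged over the feeding states there were 0 by edgeR (1 at an unadjusted p under 0.05, 0 by DESeq2) but 2 under total count scaling. For the interaction the count ranged from 0 to 1 when 1 library was left out, and was 2 (Esrra and Hnf4a) under DESeq2 size factors, upper quartile scaling, a minimum of 1 CPM and DESeq2. The causes were not tested.

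Replicate numbers are shared by different mice. Deviations of same-numbered libraries correlated from -0.349 to 0.701, with 8 of 24 pairs over 0.1 and 4 of 16 libraries closest to their own number. The value of 0.701 was between HFD fed replicate 4 and HFD fast replicate 4, the lowest libraries of their groups for Nr1i3. CD fed replicate 1, the lowest of its group, correlated with these 2 at 0.296 and 0.354. All 4 pairs were over 0.1 only between CD fed and CD fast, where the replicate block changed no receptor call (Nr1i3 at adjusted p = 0.0251, edgeR). With the block, 0 receptors had an interaction (Esrra at adjusted p = 0.0516, edgeR) and 2 passed for fasting in HFD, Nr1i3 being lost (adjusted p = 0.0571). That call was also lost with DESeq2 size factors, no filter, limma-voom and only the groups compared.

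Over the 9 lists, 30 genes were called for fasting in HFD (13 to 32 with 1 library left out). For HFD in fed livers 34 were called (20 to 39, DESeq2 52), and for the interaction 14 (8 to 16, DESeq2 32). For HFD in fasted livers 23 were called (6 to 24), 15 with no filter, 35 under DESeq2 and 2 with only the groups compared. Over all genes, DESeq2 called 1768 against 1131 for HFD in fed livers, 1967 against 1161 for HFD in fasted livers and 1079 against 390 for the interaction, and only the groups compared gave 90 for HFD in fasted livers. Total count scaling moved the median of all genes to 0.17 for HFD in fasted livers and to 0.13 for HFD averaged over the feeding states. It called 2101 genes in the first, 88.1% of them higher against 39.6%, and 3085 against 1809 in the second, 84.7% higher against 41.5%. The share higher became 67.6% against 54.0% for fasting in HFD, 68.8% against 43.8% for HFD in fed livers, 44.3% against 54.4% for fasting in CD and 69.5% against 47.4% for the interaction. Under upper quartile scaling it was 51.2% for HFD in fasted livers and 55.1% for HFD averaged.

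Changes near 0 turned sign, none of them called. Under total count scaling these were HFD in fasted livers for Ppard (0.11), Nr1h3 (0.15) and Rxra (0.15), HFD averaged for Ppard (0.01), Nr1h3 (0.11) and Hnf4a (0.08), the interaction for Nr1h3 (0.08) and Nr1i3 (0.04), Nr5a2 for fasting in HFD (0.04) and HFD in fed livers (0.06), and Hnf4a for fasting in CD (-0.02). Under upper quartile scaling they were Nr1h3 for HFD in fasted livers (0.03), the interaction (0.01) and HFD averaged (0.03), Rxra for HFD in fasted livers (0.03), Nr5a2 for fasting in HFD (0.02) and HFD in fed livers (0.01), and Hnf4a for HFD averaged (0.00). With a minimum of 1 CPM they were Nr1h3 for HFD in fasted livers (0.01) and HFD averaged (0.01), Rxra for HFD in fasted livers (0.00) and Nr5a2 for HFD in fed livers (0.00). With no filter they were Nr1h3 for HFD in fed livers (-0.01) and the interaction (0.00). Rxra for HFD in fasted livers was 0.00 under limma-voom, and Nr5a2 for HFD in fed livers was 0.00 with only the groups compared and with the replicate block.

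With 1 library left out, Ppara ran from -0.06 to 0.16 for HFD in fed livers and from -0.06 to 0.16 for the interaction, and Pparg from -0.26 to 0.10 for HFD in fed livers. Ppard ran from -0.28 to 0.03 for HFD in fed livers, -0.14 to 0.03 in fasted livers and -0.07 to 0.24 for the interaction. Nr1h3 ran from -0.03 to 0.03 for HFD in fed livers, -0.04 to 0.06 in fasted livers, -0.04 to 0.06 for the interaction and -0.02 to 0.03 for HFD averaged. Nr1i2 ran from -0.07 to 0.13 for fasting in HFD and -0.04 to 0.18 for HFD in fasted livers, and the Nr1i3 interaction from -0.35 to 0.23. Rxra ran from -0.02 to 0.08 for fasting in HFD and -0.13 to 0.09 for HFD in fasted livers, Nr5a2 from -0.08 to 0.04 for fasting in HFD and -0.07 to 0.08 for HFD in fed livers. Hnf4a ran from -0.03 to 0.08 for fasting in CD, and Esrra from -0.11 to 0.01 for fasting in HFD and -0.02 to 0.13 for HFD averaged.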
